A study of Mus musculus with 2 samples.

Results

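The GIMAP genes (GTPases of immunity-associated proteins) encode GTP-binding proteins of lymphocytes, and the 8 mouse members are Gimap1, Gimap3, Gimap4, Gimap5, Gimap6, Gimap7, Gimap8 and Gimap9. They were taken by symbol and all 8 were listed, and held reads, in each table, of 29292 genes listed for TAS-Seq and 25459 for BD WTA. Spleen cells came from female C57BL/6J mice that carried Lewis lung carcinoma (LLC), a mouse lung tumour line grown under the skin. LLC cells were injected at an age of 10 weeks, anti-CD4 antibody was given at 200 μg per shot on day 5 and day 9, and spleens were taken on day 12, so every cell described here is from a treated, tumour-bearing animal and no untreated spleen stands beside them. Cells of 3 spleens were pooled, cleared of red cells, frozen and thawed, and 2000 were loaded on 1 BD Rhapsody cartridge, whose wells pair a cell with a barcoded bead. The beads were then split between TAS-Seq, which tails cDNA with terminal transferase, and the whole-transcriptome kit of the manufacturer (BD WTA), in which random primers extend the cDNA. There is 1 library per method, so no difference below was tested and cells are not replicates of a method or an animal.

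GIMAP proteins share a GTP-binding domain and many sit on intracellular membranes, where several act in the survival of resting lymphocytes. Loss of Gimap5 in rodents depletes T cells and NK cells, loss of Gimap1 depletes mature T and B cells, and Gimap6 is linked to autophagy through binding to a GABARAP-family protein. Gimap3 is a close paralog of Gimap5, and both have been reported to bind BCL2-family proteins. Gimap4 has been linked to the death of T cells, while Gimap7, Gimap8 and Gimap9 are known less well.

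The members lie next to each other on mouse chromosome 6, between positions 48647234 and 48770851 (GRCm38, GENCODE M21), a span of 124 kb. From the lower coordinate the order was Gimap8, Gimap9, Gimap4, Gimap6, Gimap7, Gimap1, Gimap5 and Gimap3. Gimap6 and Gimap3 are on the minus strand, and the other 6 members are on the plus strand.

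**Figure D1:**
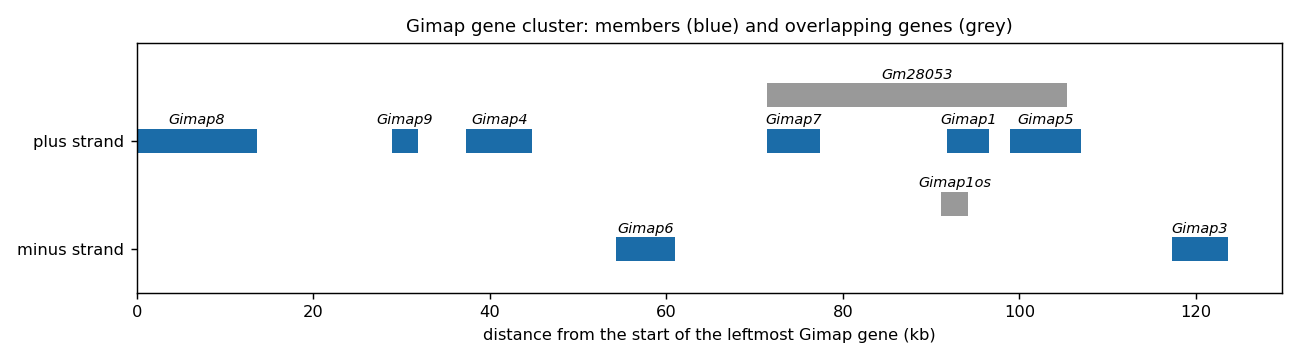
Map of the Gimap cluster, with the distance from the start of Gimap8 in kb on the horizontal axis and the strand on the vertical axis. Blue bars are the 8 members; grey bars are Gm28053, which spans Gimap7, Gimap1 and part of Gimap5, and the antisense gene Gimap1os.

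The 250 bases before the RefSeq starts of 4 members are shown because these members differ in their pattern over the cell classes below. Gimap1 was higher in B-like than in T-like cells, Gimap3 higher in T-like cells, Gimap5 highest in NK-like cells of the named classes and Gimap6 at similar levels in B-like and T-like cells. Sequences are from RefSeq (GRCm38.p6) and run 5′ to 3′ on the gene's strand, at chr6:48738797-48739046 (plus strand) for Gimap1, chr6:48770852-48771101 (minus strand) for Gimap3, chr6:48745947-48746196 (plus strand) for Gimap5 and chr6:48708245-48708494 (minus strand) for Gimap6. Capitals mark CGGAAG or AGGAAG, the core of ETS-family sites, and TGTGGT, the core of RUNX sites, read on both strands.
Gimap1: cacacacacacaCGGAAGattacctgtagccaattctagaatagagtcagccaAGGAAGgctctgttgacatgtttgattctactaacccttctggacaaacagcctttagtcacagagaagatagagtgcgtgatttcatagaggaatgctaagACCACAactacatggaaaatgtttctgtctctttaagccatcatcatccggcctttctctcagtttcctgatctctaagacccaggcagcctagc
Gimap3: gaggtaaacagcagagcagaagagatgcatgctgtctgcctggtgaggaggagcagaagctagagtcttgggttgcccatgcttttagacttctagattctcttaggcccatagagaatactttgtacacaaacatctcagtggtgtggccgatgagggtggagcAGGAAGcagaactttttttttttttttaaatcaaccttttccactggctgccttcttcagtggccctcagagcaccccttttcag
Gimap5: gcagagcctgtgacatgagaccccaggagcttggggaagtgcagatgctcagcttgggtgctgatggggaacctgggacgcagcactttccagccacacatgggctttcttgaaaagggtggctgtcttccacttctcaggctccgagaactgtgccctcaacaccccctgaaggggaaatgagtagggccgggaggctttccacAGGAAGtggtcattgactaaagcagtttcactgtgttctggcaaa
Gimap6: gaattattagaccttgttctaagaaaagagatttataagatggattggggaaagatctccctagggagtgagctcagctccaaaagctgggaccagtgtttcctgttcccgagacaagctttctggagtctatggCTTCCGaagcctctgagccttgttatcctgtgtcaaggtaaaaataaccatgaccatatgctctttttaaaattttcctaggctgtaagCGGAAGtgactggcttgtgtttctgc

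Of the 9 promoter entries of the family (Gimap8 has 2), 8 held an ETS core and every member had at least 1 such entry, against 39.2% of 32851 promoters in the table. A RUNX core was in 3 entries, those of Gimap1, Gimap4 and Gimap7, against 14% of all promoters. Of 3 other cores searched on both strands, GGGCGG (KLF or SP) was in 2 entries against 32.7% of all promoters, TGTTTA (FOXO) in 1 against 12%, and CTTTGA (TCF or LEF) in 0 against 13.8%. These are letter matches in a fixed window, and say nothing of binding. The upstream windows held 1 to 8 CpG dinucleotides, with a median of 3 for the members and 6 over all promoters.

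Cells were sorted into classes by clustering without any Gimap gene. B-like (396 and 360 cells in the TAS-Seq and BD WTA libraries), T-like (274 and 280), NK-like (20 and 26) and neutrophil-like cells (10 and 11) were named from marker genes. A cluster led by Fcer1g, Mpeg1, Tyrobp and Cst3 (23 and 22 cells) was left unnamed and is called the Mpeg1 cluster. The monocyte or macrophage markers summed to 3632 and 5037 CPM in it, against 25.1 and 19.1 CPM in T-like cells and 547 and 514 CPM in B-like cells. Markers of dendritic cells summed to 1228 and 1004 CPM in it, against 11 and 3.42 CPM in T-like cells. The B markers summed to 2464 and 901 CPM in it. The 2 tables held 38656790 and 31608259 reads over 736 and 716 barcodes, with 0 barcodes in both. Levels are pooled CPM, the reads of a gene summed over the cells of a class, per 1000000 reads of that class. Ranges in brackets are exact 95% Poisson or binomial intervals. They cover the counting error of reads only, and not the spread between animals, cells or libraries. Reads were counted without molecular identifiers, so copies of the same molecule count more than once. The intervals can thus be too narrow for the counting of molecules.

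GIMAP RNA was found in B-like, T-like and NK-like cells and was near the limit of detection in neutrophil-like cells. Summed over the 8 members, the level was 1874 and 1748 CPM in B-like, 2559 and 2830.2 CPM in T-like and 3578 and 3211 CPM in NK-like cells of the TAS-Seq and BD WTA libraries. The order from B-like over T-like to NK-like was the same in both libraries. The members held 0.209% and 0.211% of all reads.

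**Figure D2:**
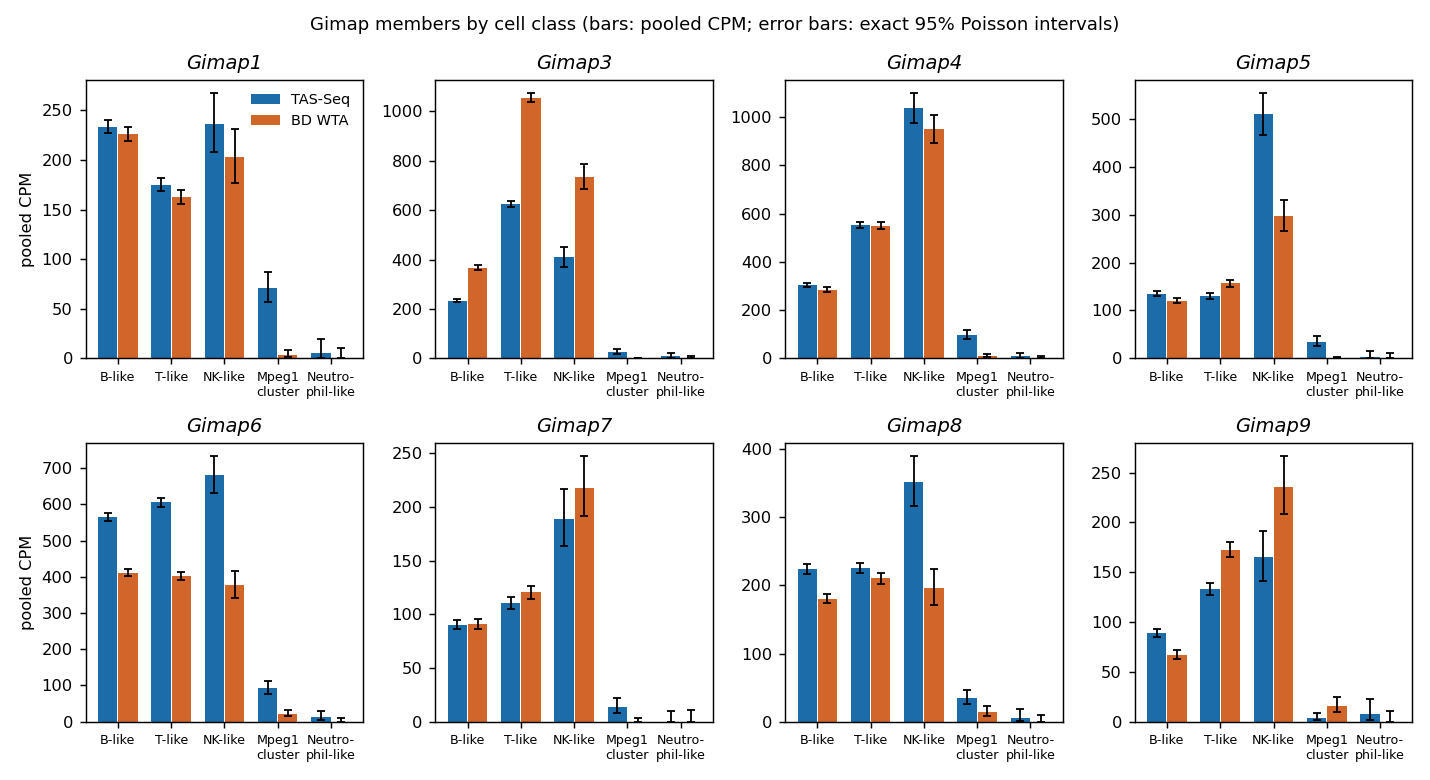
Pooled CPM of each member (vertical axis, linear, one panel per gene with its own scale) in 5 classes of cells, with 1 bar per library and exact 95% Poisson intervals. Gimap4 reached 1037 and 949.9 CPM in NK-like cells, and all 8 members were low or at 0 in the Mpeg1 cluster and in neutrophil-like cells.

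In neutrophil-like cells, the defining markers S100a8, S100a9, Retnlg, Csf3r and Ngp summed to 122631 and 64982 CPM, while the 8 members together had 19 reads in the 10 TAS-Seq cells, or 50.2 CPM. The 11 BD WTA cells had 0 reads of any member. The summed level was 50.9-fold higher in T-like than in neutrophil-like cells of the TAS-Seq library, and at least 332-fold higher in the BD WTA library, taking 3 reads of all members together as the floor. At 20000 reads per cell, 30% of 10 TAS-Seq neutrophil-like cells had a read of Gimap6, 20% of Gimap3 and 0 of Gimap7, and none had 5 reads of any member. In the BD WTA library 0 of 10 such cells had a read. Taken as up to 3 cells, this allows a share of cells with a read of up to 30%, and the exact binomial interval reaches 30.8%. With 10 such cells per library these shares are too coarse for a background level, and none was applied to other classes.

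The Mpeg1 cluster was also low, at 377 and 67.2 CPM for the summed family, and all 8 members were at least 2-fold lower than in T-like cells in each library. Single members ranged from 3.85 (Gimap9) to 97.7 CPM (Gimap4) in the TAS-Seq library and from 0 to 22.4 CPM (Gimap6) in the BD WTA library. Of all genes tested, 26.7% and 34.3% were that much lower. In the TAS-Seq library, 9 of the 23 cells had at least 5 reads of 3 or more B-cell markers, against 2 of 22 in the BD WTA library. Without those cells the summed level was 86.4 and 70.8 CPM, and Gimap1 made up 45.5 CPM of the TAS-Seq value. In the BD WTA library 19 of 22 cells of the cluster had no read of any member.

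**Figure D3:**
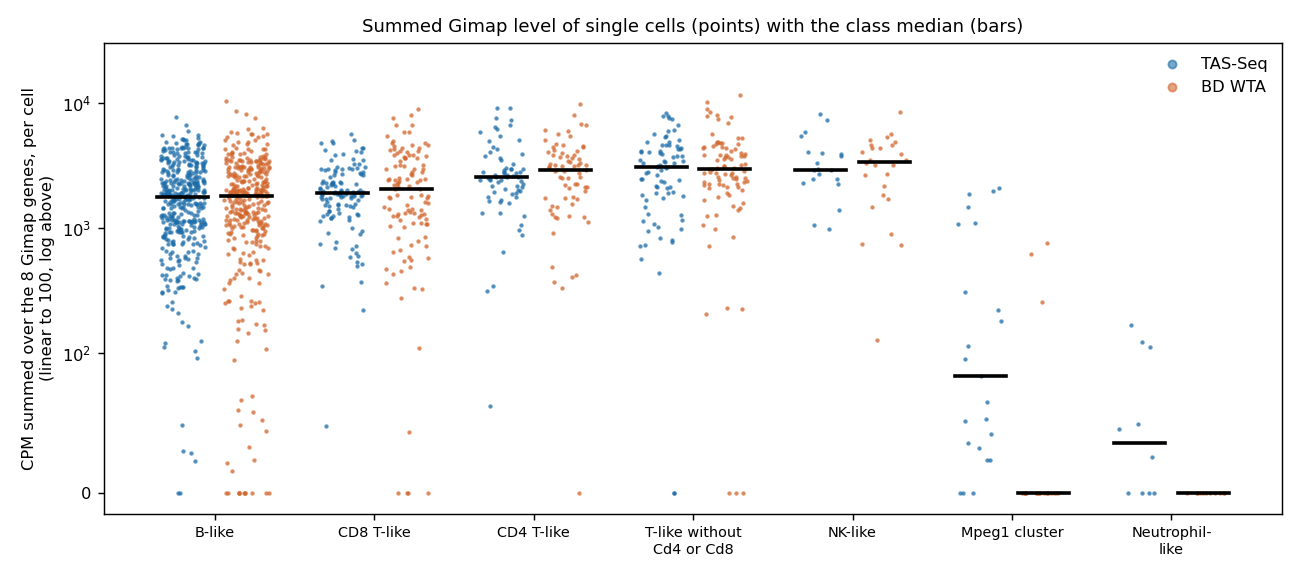
CPM of single cells summed over the 8 members (vertical axis, linear to 100 and log above) in 7 classes; each point is a cell and each bar the class median. The medians were 1782 and 1794 CPM in B-like cells and 2913 and 3378 CPM in NK-like cells, and BD WTA cells of the Mpeg1 cluster lay mostly at 0.

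Gimap3 had the largest difference between T-like and B-like cells. It was at 234 CPM in B-like and 626 CPM in T-like cells of the TAS-Seq library, and at 366 and 1055 CPM in the BD WTA library. The log2 ratio of T-like over B-like cells was 1.42 (1.37 to 1.47) and 1.53 (1.48 to 1.57), or 2.67-fold and 2.88-fold. A read of Gimap3 was found in 78.5% of T-like and 48.7% of B-like TAS-Seq cells at 20000 reads, and in 79.6% and 49.4% of BD WTA cells, so the shares followed the levels.

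At the 2-fold threshold, T-like cells were higher for 1 of 8 members in the TAS-Seq library (Gimap3) and 2 of 8 in the BD WTA library (Gimap3 and Gimap9), where 8.48% and 12.2% of all genes tested were as much higher. No member was 2-fold lower, against 17.1% and 16.6% of all genes. The median log2 ratio of the 8 members was 0.20 and 0.39, and that of all genes tested -0.10 and 0.01. The members divided into those higher in T-like cells, those at similar levels and 1 that was lower.

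Gimap4, which has been linked to T-cell death, followed Gimap3, with 553 against 304 CPM in the TAS-Seq library and 550.2 against 286 CPM in the BD WTA library, 1.82-fold and 1.93-fold higher in T-like cells. Gimap9 was 1.5-fold and 2.56-fold higher, at 133 against 88.9 CPM and 172 against 67.4 CPM. Gimap7 differed less, by 1.23-fold and 1.32-fold, with 110.5 against 90.1 CPM and 120.5 against 91.2 CPM. With each cell weighted equally, the BD WTA log2 ratio of Gimap7 went from 0.40 to -0.25, so its direction there depends on the weighting.

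Gimap1 was the only member lower in T-like than in B-like cells in both libraries. It had 234 CPM (227 to 241) in B-like and 175 CPM (168 to 182) in T-like cells of the TAS-Seq library, and 226 CPM (219 to 234) and 163 CPM (156 to 170.1) in the BD WTA library. The log2 ratios of -0.42 and -0.47 were under the 2-fold threshold, and stayed below 0 under each alternative tried. Other members joined it under some alternatives, Gimap6 with classes from a marker gate (-0.12 and -0.13) and Gimap8 at 20000 reads per cell (-0.03 and -0.11). The share of cells with a read was 56.7% and 53.6% for TAS-Seq, and 37.8% and 31.9% for BD WTA, in B-like and T-like cells.

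Gimap6 and Gimap8 were close in T-like and B-like cells, and Gimap5 differed in the BD WTA library. Gimap6, the autophagy-linked member, had 605 CPM in T-like and 564 CPM in B-like TAS-Seq cells and 403 and 411 CPM in the BD WTA library, with log2 ratios of 0.10 and -0.03. Its reads were in 83.8% and 83.7% of TAS-Seq T-like and B-like cells. Gimap8 had 226 and 224 CPM in the TAS-Seq library (log2 ratio 0.01, -0.05 to 0.08), and 210.1 and 180.1 CPM in the BD WTA library. Gimap5 had 131 and 135 CPM in the TAS-Seq library, and 157 and 120.1 CPM in the BD WTA library. For Gimap5 the log2 ratio was -0.05 (-0.13 to 0.04) in the TAS-Seq and 0.38 (0.29 to 0.47) in the BD WTA library, the latter similar in size to that of Gimap7.

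**Figure D4:**
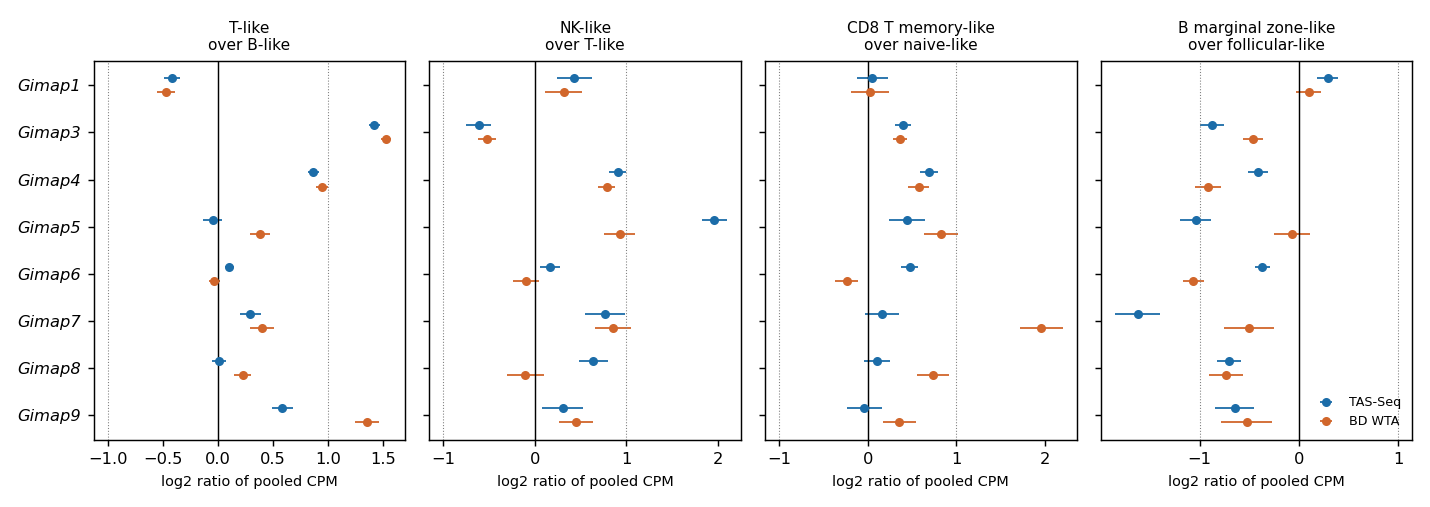
Log2 ratio of pooled CPM (horizontal axis) of each member (vertical axis) for 4 pairs of classes, with 1 point per library and 95% intervals from counting error. Dotted lines mark a 2-fold difference. In T-like over B-like cells Gimap3 lies beyond 1 in both libraries, and Gimap1 lies below 0 in both.

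NK-like cells had the highest summed level of the named classes. By pooled CPM, Gimap5 had the largest ratio to T-like cells in both libraries. Gimap4 and Gimap7 followed in the TAS-Seq library, and Gimap7 and Gimap4 in the BD WTA library. With each cell weighted equally, the BD WTA log2 ratios were 1.16 for Gimap7, 1.02 for Gimap4 and 0.58 for Gimap5. The lead of Gimap5 in that library thus depends on the weighting. Gimap5, whose loss depletes NK cells, was at 509 CPM (467 to 554) in NK-like TAS-Seq cells and 298 CPM (267 to 332) in NK-like BD WTA cells, 3.9-fold and 1.9-fold over T-like cells. A read was found in 75% (50.9 to 91.3) of NK-like and 37% of T-like TAS-Seq cells, and in 56.5% (34.5 to 76.8) and 25.4% of BD WTA cells. Gimap4 was at 1037 and 949.9 CPM, 1.88-fold and 1.73-fold over T-like cells, and in 95% and 82.6% of NK-like cells.

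Gimap3 went the other way, with 409 CPM in NK-like and 626 CPM in T-like TAS-Seq cells, and 735 and 1055 CPM in BD WTA cells. It was the only member lower in NK-like than in T-like cells in both libraries, with log2 ratios of -0.61 and -0.52. At the 2-fold threshold, 1 of 8 members was higher in NK-like than in T-like cells in the TAS-Seq library (Gimap5) and 0 in the BD WTA library, where 22.9% and 21.6% of all genes tested were. None was 2-fold lower, against 27.9% and 27.7% of all genes. Against B-like cells the counts were 3 and 5 of 8, where 20.2% and 21.8% of all genes were, and Gimap4, Gimap5 and Gimap7 were in both counts.

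Gimap7 was at 188 and 218 CPM in NK-like cells, 1.71-fold and 1.81-fold over T-like cells. Gimap1 was at 236 and 203 CPM and Gimap9 at 165 and 236 CPM, and both were higher than in T-like cells in each library, by 1.35-fold and 1.25-fold for Gimap1 and by 1.24-fold and 1.37-fold for Gimap9. With each cell weighted equally, the BD WTA log2 ratios were 0.012 for Gimap1 and 0.009 for Gimap9. By pooled CPM, only Gimap6 and Gimap8 had no common direction in the libraries. Gimap6 was at 681 and 377 CPM and Gimap8 at 352 and 196 CPM, both above T-like cells in the TAS-Seq and below them in the BD WTA library.

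The NK-like values rest on few cells. The 5 cells with most reads of a member held from 51% (Gimap6) to 92% (Gimap9) of its reads in the TAS-Seq library. With those 5 cells left out of each class, 1 of 8 members stayed higher in NK-like than in T-like cells of the TAS-Seq library, and the same number of the BD WTA library, Gimap5 in each, with log2 ratios of 1.22 and 0.13. This alternative was added after the data were seen, and 5 cells are a larger part of 20 or 26 NK-like cells than of the T-like cells. Fewer cells with RNA and less RNA per cell cannot be told apart in such pooled levels.

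**Figure D5:**
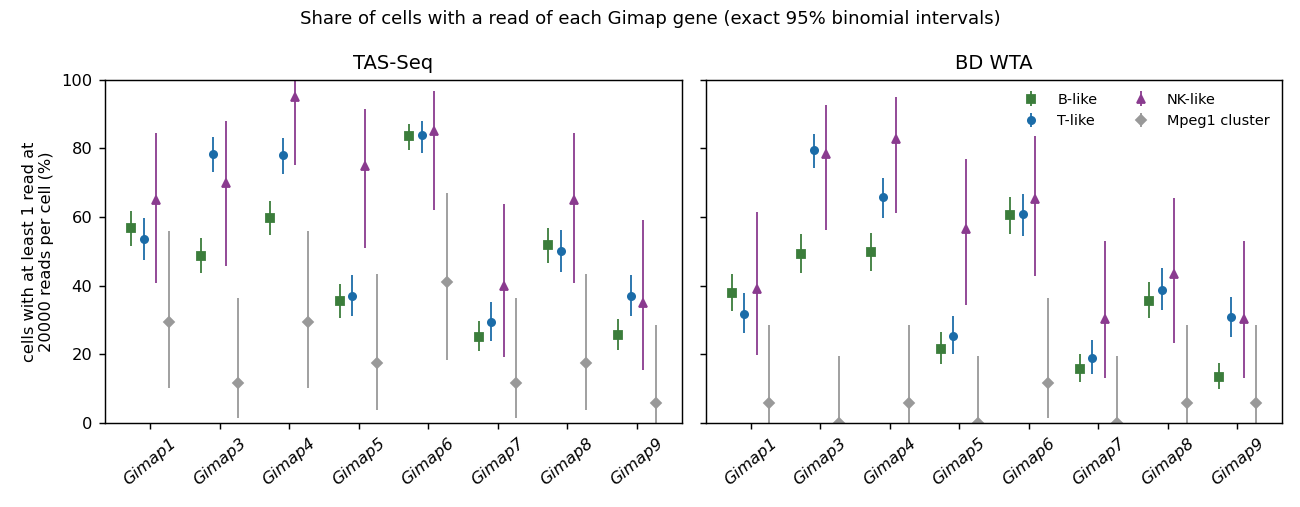
Share of cells with at least 1 read of each member at 20000 reads per cell (vertical axis, percent) in 4 classes, with exact 95% binomial intervals; cells below 20000 reads were left out. Gimap5 was found in 75% and 56.5% of NK-like cells against 37% and 25.4% of T-like cells.

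T-like cells were divided by at least 5 reads of Cd4, or of Cd8a or Cd8b1. Each division also follows sequencing depth, because a shallow cell is less likely to reach 5 reads. The summed level was 2117 and 2445 CPM in CD8 T-like cells (122 and 115 cells), 2915 and 2946 CPM in CD4 T-like cells (68 and 72), which are those still present after the CD4 antibody, and 3206 and 3319 CPM in T-like cells with neither (79 and 91). CD8 T-like cells were thus the lowest of these subsets in both libraries. T-like cells with neither were below NK-like cells (3578 CPM) in the TAS-Seq library and above them (3211 CPM) in the BD WTA library. By cell medians the order was the other way in each, at 3063 against 2913 CPM and 2938.5 against 3378 CPM. The median depth of CD8 T-like cells was 58971 and 45913 reads, against 44173 and 37114 in T-like cells with neither. The NK markers summed to 267 and 72.3 CPM in T-like cells with neither gene, against 51.9 and 23.1 CPM in CD8 T-like cells, and their part in the difference was not tested.

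Gimap3, Gimap4 and Gimap6 were higher in both other subsets than in CD8 T-like cells in each library. In CD4, CD8 and neither-gene T-like cells of the TAS-Seq library, Gimap3 was at 793, 499 and 762 CPM. The BD WTA values were 1151, 880.3 and 1264 CPM. Gimap4 was at 559, 439.6 and 802 CPM and at 651, 424 and 621 CPM. Gimap6 was at 753, 483 and 731 CPM and at 419, 354 and 462 CPM. None of these differences reached 2-fold by pooled CPM, and 1 did with each cell weighted equally, that of Gimap4 between TAS-Seq T-like cells with neither gene and CD8 T-like cells (log2 ratio 1.13). In all, 0 of 8 members passed 2-fold between CD4 and CD8 T-like cells in each library, against 22.8% and 25.5% of all genes tested. The same count was 0 of 8 for T-like cells with neither gene over CD8 T-like cells, against 22.2% and 24.8%.

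By cluster, the highest summed level of all was in a T-like cluster led by Il2rb, Id2 and Ccl5, genes of activated or innate-like lymphocytes, at 5237 CPM in 19 TAS-Seq and 4748 CPM in 24 BD WTA cells. Its Gimap3 level was 1288 and 1836 CPM, its Gimap4 level 1406 and 1047 CPM and its Gimap8 level 541 and 495 CPM. Next came a T-like cluster with Cd4, Izumo1r and Ikzf2 among its leading genes, at 3849.5 and 3308 CPM in 18 and 34 cells. The largest T-like cluster, led by Trbc2 and Tcf7, was at 2187 and 2512 CPM, and a cluster led by Cd8b1, Cd8a and Nkg7 at 2449.7 and 2672 CPM. Clusters were made without Gimap genes, but from the same cells, and their order is a description.

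CD8 T-like cells with 2 or more memory markers at 5 reads (memory-like, 55 and 40 cells) had a summed level of 2372 and 2869 CPM, against 1814 and 2123 CPM in the rest (naive-like, 67 and 75 cells). 7 of 8 members were higher in memory-like cells in each library, with Gimap9 the exception for TAS-Seq and Gimap6 for BD WTA. With each cell weighted equally, or without the 5 cells richest in a member, 5 or 6 were. The median log2 ratio of the members was 0.28 and 0.47, and that of all genes tested 0.004 and 0.009. The share of all genes higher by any amount was not taken. Gimap1 was near 0, at 0.05 (-0.12 to 0.22) and 0.03 (-0.18 to 0.24). Gimap4 was at 533 against 329 CPM and 522 against 349.7 CPM, log2 ratios of 0.69 and 0.58. Gimap3 was 0.40 and 0.36 on the same scale, and Gimap5 0.44 and 0.83. The 2-fold threshold was passed by 0 and 1 of 8, against 12.2% and 12.2% of all genes tested, and the 1 member was Gimap7 in the BD WTA library, at 233 against 60 CPM. In the TAS-Seq library Gimap7 was at 124 and 111 CPM. Memory-like cells were also deeper, with a median of 71486 and 61714 reads against 52734 and 41265, and 41 and 43 naive-like cells had exactly 1 memory marker. The NK markers, some of which memory CD8 cells express, summed to 92.1 and 49.8 CPM in memory-like and 4.24 and 2.84 CPM in naive-like cells.

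Among B-like cells, GIMAP RNA was lower in marginal zone-like cells (2 or more of Cr2, Cd9, Dtx1, Mzb1, S1pr3 and Cd1d1, without Fcer2a) than in follicular-like cells (Fcer2a, with at most 1 of them). The summed level was 1506 against 2125 CPM in the TAS-Seq library (67 and 193 cells) and 1293 against 1931 CPM in the BD WTA library (54 and 158 cells). In each library 7 of 8 members were lower and Gimap1 was the exception, at 268 against 219 CPM and 247 against 232 CPM. The median log2 ratio of the members was -0.68 and -0.52, and that of all genes tested 0.004 and -0.08. The share of all genes lower by any amount was not taken. Gimap5 in the BD WTA library was near 0, at -0.07 (-0.25 to 0.11). Gimap3 was at 163 against 298 CPM and 310.0 against 427 CPM, and Gimap8 at 161 against 263 CPM and 104 against 173 CPM. At least 2-fold lower were Gimap5 and Gimap7 in the TAS-Seq library and Gimap6 in the BD WTA library, 2 and 1 of 8, where 11.7% and 16.3% of all genes tested were. With the 5 cells richest in a member left out of each class, 7 of 8 were lower in both libraries. Of these, 4 and 5 were 2-fold lower. But 5 cells are a larger part of 67 or 54 marginal zone-like than of 193 or 158 follicular-like cells. Leaving them out can itself lower the marginal zone-like level more, so this setting cannot show that the difference holds. The share of all genes was not taken under it. With each cell weighted equally, 7 and 6 were lower and 1 and 0 were 2-fold lower. Marginal zone-like cells were deeper, with a median of 73572 and 60746 reads against 38617 and 32682, and the part of depth in this difference was not tested.

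A small unnamed cluster led by Stmn1, Top2a and Mki67, genes of dividing cells (9 cells in each library), held T-cell and B-cell markers, and in the TAS-Seq library NK markers, and had a summed level of 1020.3 and 847 CPM, below both T-like and B-like cells. Of the 8 members, 4 and 7 were at least 2-fold below T-like cells, against 26.6% and 34.6% of all genes tested. Gimap3 was at 176 and 157 CPM and Gimap8 at 34.2 and 55.5 CPM. Gimap5 was not low in the BD WTA library, at 214 CPM.

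The libraries gave levels of the members within 2-fold of each other in T-like, B-like and NK-like cells. Of all genes tested, 24.5%, 20.4% and 34.9% differed by at least 2-fold. Those genes reach down to 10 CPM, below every member in these classes, and the percentages were not matched for level. Gimap3 was lower and Gimap6 higher in the TAS-Seq library in each of the 3 classes. For T-like cells, Gimap3 had 626 CPM with TAS-Seq and 1055 CPM with BD WTA, a log2 ratio of -0.75 (-0.79 to -0.72), and Gimap6 had 605 CPM with TAS-Seq and 403 CPM with BD WTA, a log2 ratio of 0.59 (0.54 to 0.64). The same ratios were -0.65 and 0.46 in B-like and -0.85 and 0.85 in NK-like cells. Gimap4 was the closest in T-like cells, with 553 CPM with TAS-Seq and 550.2 CPM with BD WTA. Since each library amplified its own portion of the beads, the method cannot be told apart from the library.

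At 20000 reads, the median T-like cell had a read of 4 members in the TAS-Seq library and 3 in the BD WTA library, the median B-like cell 4 and 3, and the median NK-like cell 5 and 4. Cells of the Mpeg1 cluster had a median of 1 and 0. All 8 were seen in 4 and 2 T-like cells. With at least 5 reads required, the medians were 3 and 3 in T-like and 2 and 2 in B-like cells. In NK-like cells they were 4 and 3. Gimap1 was found in more TAS-Seq than BD WTA T-like cells at a similar pooled level. The share was 53.6% (47.4 to 59.7) at 175 CPM in the TAS-Seq library and 31.9% (26.3 to 38) at 163 CPM in the BD WTA library. Counting cells with at least 5 reads, the shares were 26% and 21.9%, closer to each other. The median T-like cell held 84.5 CPM of B markers in the TAS-Seq and 0 in the BD WTA library. T markers in the median B-like cell were at 37.6 and 0 CPM. Single reads in a TAS-Seq cell may thus come from other cells, and their part in the shares was not tested.

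Among T-like cells with a read, the median level of Gimap1 was 195 CPM in the TAS-Seq and 356 CPM in the BD WTA library. The reads of a member were spread unevenly, and 50% of the Gimap1 reads of T-like cells lay in 30 of 274 and 22 of 280 cells. For Gimap3 they lay in 46 and 51 cells, and for Gimap9 in B-like cells in 23 of 396 and 12 of 360. Over the 28 pairs, Spearman's rho across T-like cells at 20000 reads ranged from -0.15 to 0.27 in the TAS-Seq library (median 0.06, 265 cells) and from -0.08 to 0.25 in the BD WTA library (median 0.09, 260 cells). In such sparse counts of cells from 1 library these values are descriptions and not findings.

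Genes that overlap the members were lower than the members. Gm28053, which spans Gimap7, Gimap1 and part of Gimap5 on the same strand, had 74 and 159 reads in all. Gimap1os, on the strand opposite to Gimap1, had 1023 and 634. Gimap3 and Gimap5 share 335 sequence words of 31 bases, and 14.6% of the words of Gimap3 transcripts are shared with some other gene, so reads from those stretches could have been assigned to either gene. The other 6 members shared no word of that length with a member, but some shared words with other genes. Gm28053 shared 5.42% of the words of Gimap1, 2.97% of those of Gimap5 and 2.2% of those of Gimap7. With any other gene, the shares were 8.36% for Gimap1 and 10.3% for Gimap5. The T-like over B-like ratios were 2.67 and 2.88 for Gimap3 and 0.967 and 1.3 for Gimap5 in the TAS-Seq and BD WTA libraries, and the part of shared reads in them was not tested.

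The pair of genes beside the Gimap3 end of the cluster had another pattern over the classes. Tmem176b and Tmem176a, which encode membrane proteins, were at 307 and 240.1 CPM in the Mpeg1 cluster of the TAS-Seq library and 347 and 333 CPM in the BD WTA library. In T-like cells they were at 2.11 and 2.31 CPM and at 5.05 and 12.1 CPM. Tmem176b was found in 7 and 9 cells of the Mpeg1 cluster. In neutrophil-like cells, where the members were lowest, both genes had 0 reads in each library, so the opposite pattern was seen in the Mpeg1 cluster and not in both low classes. Of the 14 protein-coding genes annotated within 200 kb of the cluster or inside it, 4 were not listed in the tables, and Lrrc61 alone passed the filter for the T-like over B-like comparison, at 13.1 against 42.4 CPM in the TAS-Seq and 22.7 against 26.8 CPM in the BD WTA library.

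Genes of related roles were compared in the same way. Of 12 genes for binding partners, death and autophagy, 10 were tested, with a median log2 ratio of -0.09 and -0.03 in T-like over B-like cells. Of these, 0 were 2-fold higher in either library, and 2 (Mcl1 and Map1lc3a) and 0 were 2-fold lower, where 8.48% and 12.2% of all genes tested were higher and 17.1% and 16.6% lower. The T-like over B-like ratio of Mcl1, a survival gene of the BCL2 family, was 0.479 and 0.547, and that of Map1lc3a, an autophagy gene, 0.337 and 0.831, in the TAS-Seq and BD WTA libraries. Bcl2, another survival gene, was at 234 against 126 CPM in the TAS-Seq library and 158 against 99.4 CPM in the BD WTA library. Gabarapl2, which encodes the autophagy protein bound by Gimap6, was at 86.5 and 81.5 CPM and at 136 and 117 CPM. Of 12 genes of resting T cells, all tested, with a median of 0.02 and 0.40, 4 were 2-fold higher in T-like cells in both libraries (Il7r, Lef1, Tcf7 and Satb1), and 2 (Klf2 and Bach2) and 0 were 2-fold lower, against the same shares of all genes. The ratio of Klf2, a transcription factor of resting lymphocytes, was 0.435 and 0.515, and that of Bach2, another transcription factor, 0.333 and 0.556, below 1 in both libraries. Satb1, a chromatin organiser of T cells, was 2.81-fold and 3.04-fold higher, a difference of the size of that of Gimap3, whereas Tcf7, a T-cell transcription factor, was 88.5-fold and 159-fold higher.

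The genes with the class pattern most like the members' mean, over 5 classes and 5226 genes, were Cyc1, Ctdspl2, Shisa5, Cd2, Gm4759, Lax1, Eif4g1, Hivep2, Msi2 and Arl4a, with a mean Pearson r of 0.977 to 0.992. Cd2, which encodes an adhesion receptor, was at 178, 318 and 357 CPM in B-like, T-like and NK-like TAS-Seq cells. In BD WTA cells Cd2 was at 171, 343 and 171 CPM. It was highest in NK-like cells in the TAS-Seq library and in T-like cells in the BD WTA library, where the members' sum was highest in NK-like cells. Shisa5, which encodes a membrane protein, was at 1249, 1429.7 and 1341 CPM in the TAS-Seq and 1099, 1434 and 1106 CPM in the BD WTA library. With 5 points that share the contrast between lymphocytes and the 2 low classes, such values are descriptions. Of the 10 genes, 5 were again among the leading 10 with a filter of 10 in place of 50 CPM, and 3 with classes from a marker gate.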

How the data were processed

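Both libraries were deposited by the authors as tables of read counts, integers for each gene in each cell barcode, neither normalized nor collapsed by molecular identifiers. According to the study's methods, reads were trimmed, mapped on the forward strand with bowtie2 to Ensembl cDNA and non-coding RNA of mouse build GRCm38, and barcodes above the inflection point of the read ranking were kept. The methods also describe other spleen samples, and the labels do not say which of the study's spleen values rest on these libraries. The submitters' processing notes name cutadapt 2.10, Bowtie2 2.4.2 and R 3.6.3. Because a molecule amplified more often counts more, amplification can change a level, and mapping to transcripts can divide reads between near copies of a gene.

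Barcodes with at least 500 genes and at most 25% mitochondrial reads were kept, 732 TAS-Seq and 708 BD WTA cells. Cells of both libraries were clustered together in scanpy 1.11.5 (values scaled within each library, 20 principal components, 15 neighbours, resolution 1) with the Gimap genes left out. A cluster was named where at least 3 markers of a type were raised by at least 1 on the log2 scale and found in 50% of its cells. A marker of that type also had to be among the 10 leading genes of the cluster, with no other type holding more. Annotation by the authors was not used here, so these names may differ from theirs. Scrublet called 3 and 4 cells as doublets, which were kept, and the caller marked under 1% of cells. Members, gene lists and classes were chosen with earlier results of these data known. The named genes are the 8 members, fixed lists and the 10 genes closest in class pattern. Levels were computed as CPM, the reads of a gene over all reads of a class. Genes with at least 10 CPM in a class and a read in 10 cells were compared and called at 2-fold. No test was run because each method had 1 library. The percentages of all genes tested were not matched to the members for level. Shares were taken after thinning to 20000 reads per cell, which left out 25 TAS-Seq and 63 BD WTA cells. The calculation of ratios and intervals was tested on pooled Poisson counts simulated with known ratios. Such counts hold no spread between cells and no repeated copies of molecules. That test therefore checks the arithmetic only, and cannot show how wide the intervals should be for these data. The TMM factors came from edgeR 4.0.16. Alternatives were other classes, weights, depths and filters. Gene positions came from GENCODE M21 and promoters from RefSeq.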

Additional observations from a re-analysis of the deposited data

Results flagged for a closer look

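Each value here is a log2 ratio of pooled CPM whose sign was opposite in the TAS-Seq and BD WTA libraries. With 1 library per method, none of these differences between libraries was tested.

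In T-like over B-like cells, the ratio of Gimap5 was -0.0484 in the TAS-Seq library and 0.3816 in the BD WTA library. That of Gimap6 was 0.1016 and -0.0316.

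In NK-like over T-like cells, the ratio of Gimap6 was 0.1696 in the TAS-Seq library and -0.0956 in the BD WTA library. That of Gimap8 was 0.6409 and -0.1039.

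In memory-like over naive-like CD8 T-like cells, the ratio of Gimap6 was 0.4732 in the TAS-Seq library and -0.2381 in the BD WTA library. That of Gimap9 was -0.039 and 0.3569.

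In NK-like over B-like cells, the ratio of Gimap1 was 0.0167 in the TAS-Seq library and -0.1565 in the BD WTA library. That of Gimap6 was 0.2712 and -0.1272.

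In CD4 over CD8 T-like cells, the ratio of Gimap8 was 0.0408 with TAS-Seq and -0.3657 with BD WTA, and that of Gimap9 was 0.2249 and -0.388. In T-like cells with neither gene over CD8 T-like cells, Gimap5 was at 0.3156 and -0.2155. In the 9 cycling cells of each library over T-like cells, Gimap5 was at -0.7372 and 0.4494 and Gimap7 at 0.0365 and -1.7578.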

How the results depend on the processing

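No paired analysis was possible because the methods share only 1 replicate number, a single library of each. The counts of members past 2-fold in T-like over B-like cells and in TAS-Seq over BD WTA T-like cells, and the median number of members seen per T-like cell, kept within 1.5 times their value under each alternative tried. Of the 10 genes closest in class pattern, 5 remained with a filter of 10 CPM and 3 with classes from a marker gate. The log2 ratios of single members changed sign in 6 of 112 cases for T-like over B-like cells (Gimap6, Gimap7 and Gimap8) and in 4 of 56 for TAS-Seq over BD WTA (Gimap4 and Gimap7), and the cause was not tested. Alternatives for the Mpeg1 cluster and for comparisons between subsets were chosen after seeing the data. With cells weighted equally, Gimap4 and Gimap7 in place of 0 members were 2-fold higher in NK-like than T-like cells of the BD WTA library. Without the 5 cells richest in a member, 5 in place of 0 were 2-fold lower there and 2 in place of 0 in the TAS-Seq library. Between CD4 and CD8 T-like cells, or T-like cells with neither gene and CD8 T-like cells, at most 1 of 8 passed 2-fold in a library under these alternatives. Pooled levels of 9 to 26 cells rest on few cells. Leaving out 5 cells takes a larger part of a small class than of a large one, and can lower the small class more. Each interval covers the counting error of reads only, and without molecular identifiers it can be too narrow for molecules.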
